A study of Mus musculus with 35 samples.

Results

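Monocytic myeloid-derived suppressor cells (M-MDSC) of untreated mice were compared between 2 organs of tumor-bearing animals, the pancreatic tumor and the spleen. The comparison took every library labelled as untreated M-MDSC, 4 from tumor and 4 from spleen, out of 35 libraries in the series, and 8298 of the 53379 listed genes reached the mean of 25 counts over these 8 libraries that was required for a test. Female C57BL/6 mice carried orthotopic tumors grown from T110299, a cell line derived from a pancreatic carcinoma of a mouse strain with Ptf1a-Cre and a Trp53 allele carrying R172H. All 8 libraries came from tumor-bearing mice killed on day 21, and treated mice received poly(I:C) complexed with polyethylenimine on days 18 and 20. The labels call the other mice untreated while their protocol names glucose as the control, so whether the mice of these 8 libraries were injected with glucose is not settled. No tumor-free spleen was among the libraries compared, and a single implanted line stood for the tumor. M-MDSC were sorted as CD11b+ Ly6Chi Ly6G- cells after magnetic enrichment for CD11b, and PMN-MDSC, the granulocytic counterpart, as CD11b+ Ly6Clo Ly6G+ cells. Spleens were passed through a strainer with lysis of red cells, whereas tumors were minced and taken apart in a dissociator with a tumor dissociation kit, so organ and preparation cannot be told apart in any value below.

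M-MDSC are immature cells of the monocyte lineage that leave the bone marrow in cancer, collect in the spleen and enter the tumor, and that restrain T cells. Prostaglandin E2 made by cyclooxygenase-2 dampens T cell activation, and PD-L1 engages an inhibitory receptor on them. Within tumors, monocytes can mature into macrophages, which take up dead cells and matrix and make factors that act on vessels and stroma.

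Total counts were 1896132 to 4200907 in the spleen libraries and 793070 to 3604818 in the tumor libraries, and tumor library 4 was the smallest. Levels are given as CPM, counts divided by the counts in tested genes and expressed per 1e6, scaled by the trimmed mean of M-values (TMM), and group levels are means ± SD over 4 libraries. The study counts the mice of a group as its replicates for these data, so p-values measure the spread between the libraries of different mice, in which mouse and preparation are joined. A count of 0 allowed a level of up to 4.42 CPM in tumor library 4, counting error only, so weakly expressed genes could be missed there. In such bulk samples fewer cells of a type and less RNA per cell cannot be told apart.

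Monocyte markers were high in the sorted cells of both organs. Summed over 7 monocyte markers, the level ran from 9441 to 13260 CPM in tumor and from 10510 to 13870 CPM in spleen. Some of these markers were also high in PMN-MDSC, scaled on their own. Lyz2 was at 3438 CPM there in spleen and 3355 CPM in tumor, and Csf1r at 585 and 1029 CPM, whereas Ccr2 was at 90.1 and 356 CPM. Lyz2 (lysozyme) was at 6288 ± 1221 CPM in tumor and 8553 ± 1387 CPM in spleen, a log2 difference of -0.44 that missed the threshold (adjusted p = 0.0932) and passed it under upper-quartile scaling (0.0371) and with DESeq2 (0.0437). Ly6c2, which encodes the antigen used in the sort, stood at 113 CPM in tumor and 134 CPM in spleen. Ccr2, the receptor that draws monocytes out of the marrow, was at 1475 ± 188 against 1265 ± 141 CPM with a log2 difference of 0.22 ± 0.14 (SE), and Csf1r, the receptor for macrophage colony-stimulating factor, was at 1324 against 1446 CPM. None of these 4 genes passed an adjusted p of 0.05 in edgeR's quasi-likelihood test with Benjamini-Hochberg adjustment, the source of every adjusted p given without another name. The other 3 markers of the list rose. Itgam (CD11b, used in the sort) and Fcgr1 (CD64) rose by 1.08 and 1.48 on the log2 scale, both named after their values were seen. Cd14, the co-receptor for bacterial lipopolysaccharide, rose most. It was at 21.4, 30.2, 27.1 and 17.8 CPM in the 4 spleen libraries and at 2251, 1592, 1747 and 827 CPM in the 4 tumor libraries (log2 difference 6.07 ± 0.33, adjusted p = 1.76e-07).

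Markers of other cell types were uneven between the organs, and their part in the results was not tested. Neutrophil markers (11 genes) summed to 3928 to 9675 CPM in the spleen libraries against 302 to 906 CPM in the tumor libraries, and of 8 that were tested 6 fell, 1 rose and the median log2 difference was -4.06. Granule genes led this list in spleen, with Ngp at 2703 CPM against 118 CPM in tumor, while Ly6g, which marks the granulocytic gate, was at 0.444 to 3.92 CPM in the spleen libraries and at 0 in 2 tumor libraries. In splenic PMN-MDSC Ngp reached 6034 CPM and Cxcr2, a receptor of mature neutrophils, 1219 CPM, against 3.52 CPM for Cxcr2 in splenic M-MDSC (the PMN-MDSC and bulk tumor libraries were each scaled on their own). Epithelial markers of the tumor cells (9 genes) went the other way, at 118 to 375 CPM in tumor and 6.47 to 12.8 CPM in spleen. Bulk tumor libraries held 5013 to 6781 CPM of the same list. Krt8, a keratin, reached 2.28% of its bulk tumor level in tumor M-MDSC and Cdh1 (E-cadherin) 11.1%, so the list did not scale evenly. All 3 tested epithelial markers rose, and without tumor library 2 only 1 marker had enough counts for a test, and it rose.

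Red pulp macrophage markers (8) summed to 234 to 392 CPM in tumor and 129 to 199 CPM in spleen, without overlap, while Vsig4 was at 0 in spleen. Siglec1 and Vcam1 carried most of the sum, with means of 183 and 83.4 CPM in tumor against 74.9 and 43.4 CPM in spleen. Spic, the factor of these cells, went the other way, at 2.88 against 30.1 CPM. Marco and Cd5l were also lower in tumor on average, whereas Cd163, C6 and Vsig4 were higher. Of 3 that were tested 1 rose, 1 fell and 1 passed no threshold. Erythroid markers (8) summed to 0 to 22.4 CPM in tumor and 28.4 to 62.9 CPM in spleen, with Hba-a1 highest and Klf1 at 0 in tumor. Acinar genes (10) reached 8.94 to 34.3 CPM in tumor, led by Ctrb1, and at most 0.388 CPM in spleen, where 9 of them were at 0. Fibroblast genes (10) reached 4.42 to 48.4 CPM in tumor and 9.79 to 11.6 CPM in spleen, against 936 to 1205 CPM in bulk tumor, with Lum at 0 in both organs. Platelet genes (6) stood at 10.3 to 25.4 CPM and 1.49 to 3.11 CPM, with Gp1ba at 0 in both. Pf4, also a member of the macrophage differentiation list, made up most of the tumor sum (mean 16.1 CPM, against 0.0969 CPM in spleen). Itga2b, Gp1bb and Gp9 were lower in tumor, at 0.518, 0 and 0 CPM against 1.09, 1.075 and 0.0969 CPM. Ppbp had counts in tumor library 2 only. Overlapping ranges were found for T cells (1.49 to 3.76 CPM in tumor and 1.52 to 2.99 in spleen), B cells (12.5 to 32.4 and 28 to 91), NK cells (2.98 to 16.2 and 2.99 to 12), dendritic cells (18.2 to 38.8 and 8.87 to 31.6), endothelium (23.6 to 49.2 and 22.6 to 32.6), mast cells or basophils (0 to 1.19 and 0.435 to 0.775) and eosinophils (2.50 to 41.2 and 13.2 to 66.1).

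**Figure D1:**
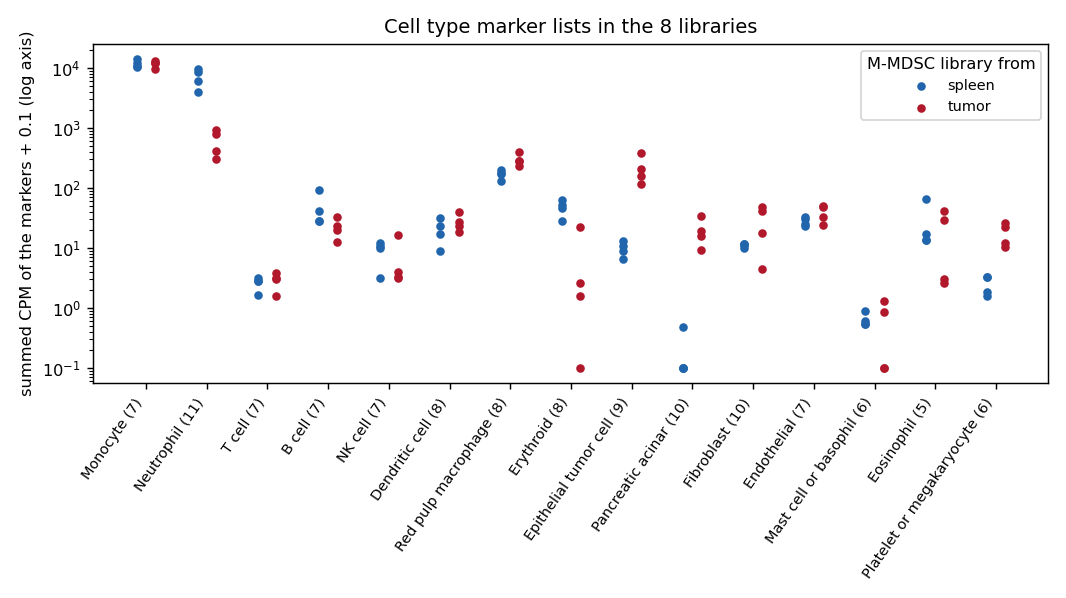
Each point is 1 untreated M-MDSC library (4 from spleen, 4 from tumor). The horizontal axis names 15 marker lists with the number of genes in each, and the vertical axis gives their summed CPM plus 0.1 on a log scale. Monocyte markers overlap between the organs, neutrophil markers are at 3928 to 9675 CPM in spleen and 302 to 906 CPM in tumor, and epithelial markers are at 118 to 375 CPM in tumor and 6.47 to 12.8 CPM in spleen.

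Tumor and spleen M-MDSC differed in a large share of the tested genes, and the largest differences were upward in tumor. At an adjusted p under 0.001 with at least a 2-fold difference, called the strict rule here, 527 genes (6.35% of those tested) were higher in tumor and 187 (2.25%) were lower. At an adjusted p under 0.05 the counts were 1302 higher (15.7%) and 1055 lower (12.7%). The 4 tumor libraries lay above all 4 spleen libraries for 1394 genes (16.8%) and below them for 1199 (14.4%). The median log2 difference over all tested genes was 0.02, and 51.2% of genes lay above 0. Under upper-quartile scaling this median moved to -0.13 and the share of calls that were higher moved from 55.2% to 39.3%, so small differences of either sign depend on the scaling, and without spleen library 4 the strict rule left 98 lower genes. A gene near 0 in one organ reached the required mean of 25 counts through the other organ alone and had to differ, so the counts and medians given for gene lists below describe the members that passed this filter and carry no weight as a test.

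**Figure D2:**
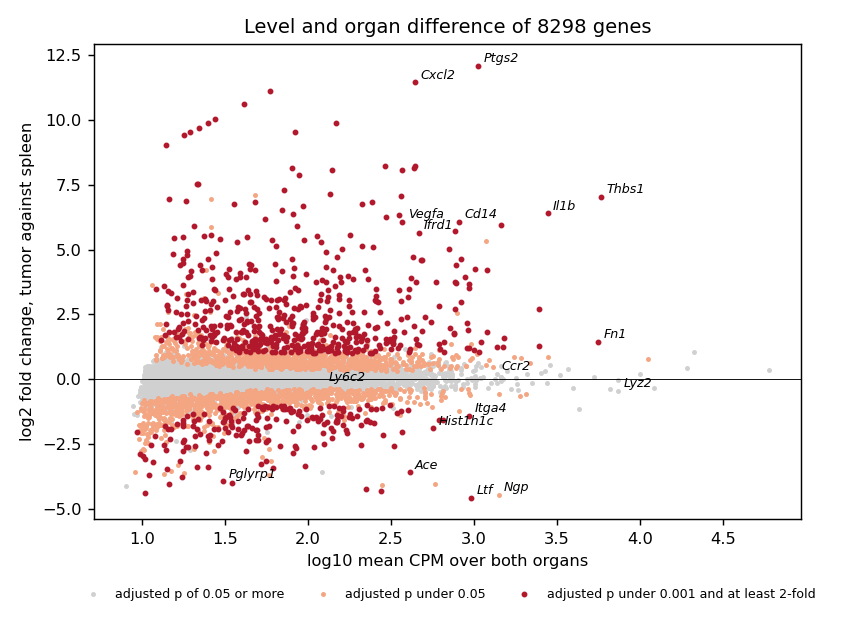
Each point is 1 of 8298 tested genes. The horizontal axis is the log10 of the mean CPM over both organs and the vertical axis the fitted log2 fold change of tumor against spleen, colored by the 2 call rules. Thbs1, Il1b and Fn1 combine a high level with a rise in tumor, Lyz2, Ccr2 and Ly6c2 lie near 0, and fitted values of genes with no or few spleen counts depend on the prior count.

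Of the strictly higher genes whose libraries did not overlap, the 10 with the smallest p are described first. Ifrd1, a transcriptional co-regulator on chromosome 12 (40201567 to 40248504, GRCm38), stood at 16.9, 16.9, 17.8 and 20.5 CPM in the spleen libraries and at 933, 862, 921 and 933 CPM in the tumor libraries. Both organs showed almost no spread for this gene, and the log2 difference was 5.64 ± 0.14 (SE, adjusted p = 6.90e-10). Il1b, which encodes the fever cytokine interleukin-1β (chromosome 2, 129364570 to 129371139), was at 80.6, 53.2, 61.6 and 65.3 CPM in spleen and at 7301, 4596, 5762 and 4384 CPM in tumor. All tumor libraries lay far above all spleen libraries, and the log2 difference was 6.40 ± 0.24 (adjusted p = 1.85e-08). Thbs1, which encodes the matrix glycoprotein thrombospondin-1 (chromosome 2, 118111876 to 118127133), was at 98.0, 111, 76.7 and 69.0 CPM in spleen and at 15540, 9357, 12870 and 8692 CPM in tumor, a log2 difference of 7.04 ± 0.28. The mean of Thbs1 in tumor was 11620 ± 3195 CPM.

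Ptgs2, the gene of cyclooxygenase-2 (chromosome 1, 150100031 to 150108227), was nearly absent in spleen, with 0.995, 0, 0 and 0.653 CPM, and stood at 3020, 1729, 2304 and 1479 CPM in tumor. Its fitted log2 difference was 12.09 ± 0.46 (adjusted p = 1.85e-08), a value that leans on few spleen counts. Osm encodes oncostatin M, a cytokine of the interleukin-6 family, and rose from 3.12 ± 0.96 to 868 ± 266 CPM. Cxcl2, a chemokine that attracts neutrophils, had 3 counts in all spleen libraries together and was at 883 ± 281 CPM in tumor, a ratio of 3725 with a 95% counting interval of 1274 to 18070. Tgm2 (transglutaminase 2, which cross-links matrix proteins) rose from 42 ± 2.1 to 1373 ± 330 CPM, and Ppp1r15a, which ends the integrated stress response, from 31.4 ± 5.4 to 834 ± 106 CPM. Ccrl2, a non-signalling receptor that presents chemerin, rose from 3.65 to 420 CPM, and Stab1, a scavenger receptor of macrophages, from 2.02 to 271 CPM.

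The 10 genes with the smallest p among strictly lower genes held 3 linker or core histone genes and 2 genes of the patrolling monocyte list, Ace and Pglyrp1. Ace, which encodes angiotensin-converting enzyme and marks patrolling monocytes (chromosome 11, 105967945 to 105989964), was at 693, 567, 714 and 1055 CPM in spleen and at 52.6, 95.4, 53.2 and 51.6 CPM in tumor. Its log2 difference was -3.58 ± 0.26 (adjusted p = 1.29e-06), with no overlap. Pglyrp1, a peptidoglycan recognition protein of granules, fell from 58.1 ± 15.4 to 3.28 ± 1.38 CPM. Nxpe4 had the smallest p of this direction and fell from 144 ± 14 to 19.1 ± 6.3 CPM, a log2 difference of -2.86 ± 0.20. Serpinb10, a serine protease inhibitor of blood-forming cells, fell from 100.2 to 11.2 CPM and Calhm2, a large-pore channel, from 83.4 to 16.7 CPM. Hist1h1e went from 592 ± 108 to 143 ± 19 CPM, Hist1h1d from 356 ± 74 to 60.1 ± 18.8 CPM and Hist1h2ao from 176 ± 27 to 16.1 ± 9.2 CPM. The unnamed loci Gm20342 and A430078G23Rik fell by 2.76 and 2.39 on the log2 scale. All 10 genes also had a negative log2 difference in M-MDSC of treated mice, where Nxpe4 and Gm20342 passed an adjusted p of 0.05.

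**Figure D3:**
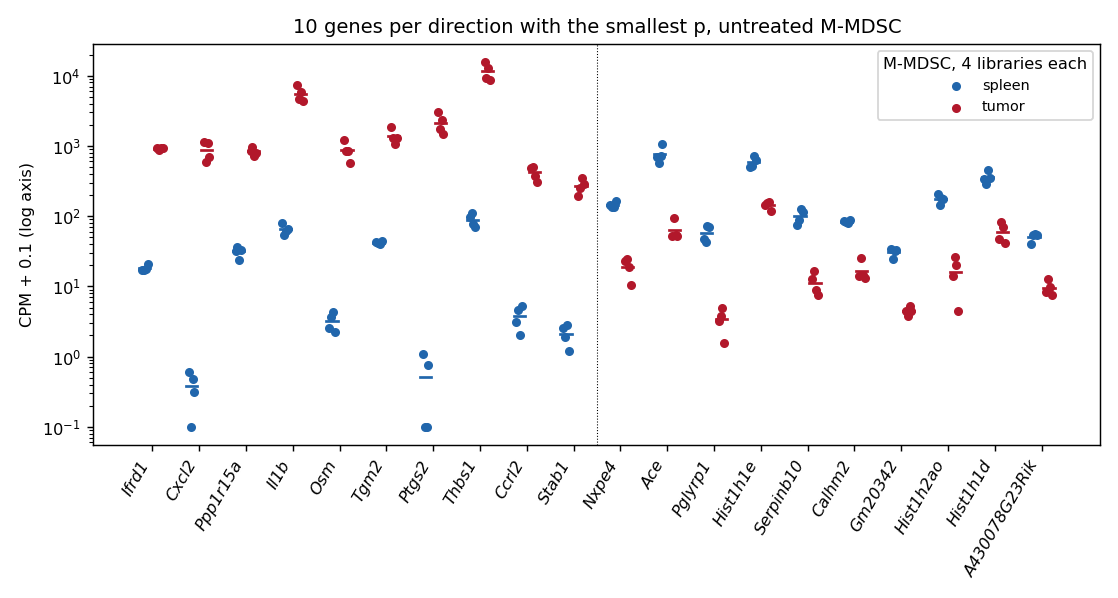
Each point is 1 library and each short line a mean of 4 libraries. The horizontal axis names the 10 genes per direction with the smallest p, and the vertical axis gives CPM plus 0.1 on a log scale. Spleen and tumor do not overlap for any of the 20 genes, a condition of their choice, and Ptgs2 and Cxcl2 have spleen libraries at 0.

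Genes of T cell suppression were mostly higher in tumor M-MDSC. Of 20 tested members of the suppressive effector list, 14 rose, 2 fell and 4 passed no threshold, with a median log2 difference of 2.94, and 13 of the 14 also passed the strict rule. Over all tested genes 15.7% rose and the median was 0.02, from which nothing is read about the list, since Ptgs2, Slc7a2, Il6 and Nt5e were near 0 in spleen and were tested because of their tumor counts. Slc7a2, an arginine transporter, was at 3.98, 0, 1.16 and 2.18 CPM in spleen and at 52.0, 29.8, 78.5 and 56.0 CPM in tumor. Its spleen libraries spread about as widely as their mean, yet the lowest tumor library lay above the highest spleen library, with a log2 difference of 4.87 ± 0.49 (adjusted p = 2.03e-05). Vegfa, the main growth factor of blood vessels (chromosome 17, 46016993 to 46032369), was at 8.46, 7.99, 13.2 and 12.4 CPM in spleen and at 848, 377, 768 and 933 CPM in tumor (log2 difference 6.08 ± 0.32).

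Other members of this list rose by smaller or larger amounts. Spp1 (osteopontin) went from 5.03 to 221 CPM, Pvr (CD155, a ligand of the inhibitory receptor TIGIT) from 14.7 to 132 CPM and Mif, a macrophage cytokine, from 10.4 to 67.8 CPM. Cd274, which encodes PD-L1, was at 47.3, 31.9, 58.1 and 58.3 CPM in spleen and at 148, 136, 91.4 and 115 CPM in tumor, with no overlap and a log2 difference of 1.31 ± 0.21 (adjusted p = 6.75e-04). The adenosine-producing pair rose as well, Entpd1 (CD39) from 73.9 to 159 CPM and Nt5e (CD73) at a ratio of 164 with an interval of 44.9 to 1365, from 2 spleen counts. Il6 also rested on 2 spleen counts, with a ratio of 1015 (280 to 8389). Lgals9 (galectin-9) rose by 0.52 on the log2 scale (adjusted p = 0.0403), a call lost under upper-quartile scaling (0.141) and in 6 of the 8 fits that left out 1 library. Cybb, the catalytic subunit of the phagocyte oxidase, fell from 1708 ± 146 to 1139 ± 157 CPM, and Il4i1, an amino acid oxidase, from 19.4 ± 10.0 to 5.06 ± 2.25 CPM. With all M-MDSC groups in 1 fit the calls for Lgals9 and Il4i1 were lost (adjusted p = 0.0993 and 0.0593). Without spleen library 4 the list held 1 faller in place of 2. Tgfb1 was at 587 CPM in spleen and 468 CPM in tumor (log2 difference -0.32, adjusted p = 0.0854, and 0.0225 under upper-quartile scaling). Vsir (VISTA) was at 443 and 455 CPM, Wfdc17 at 61.2 and 68.9 CPM, and Havcr2 (TIM-3) at 70.1 and 57.6 CPM. Nos2, Pdcd1lg2, Il10, Ptges and Ido1 had too few counts for a test.

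Arginine metabolism moved in both directions. Of 13 enzymes and carriers for arginine, polyamines and tryptophan 8 rose, 2 fell and 3 passed no threshold (median 0.93). Odc1, ornithine decarboxylase, the first enzyme of polyamine synthesis, was at 9.79 to 12 CPM in spleen and 162 to 361 CPM in tumor (log2 difference 4.71 ± 0.27). Sat1, which starts the breakdown of polyamines, fell from 564 ± 109 to 307 ± 69 CPM. The other that fell was Il4i1, given above.

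**Figure D4:**
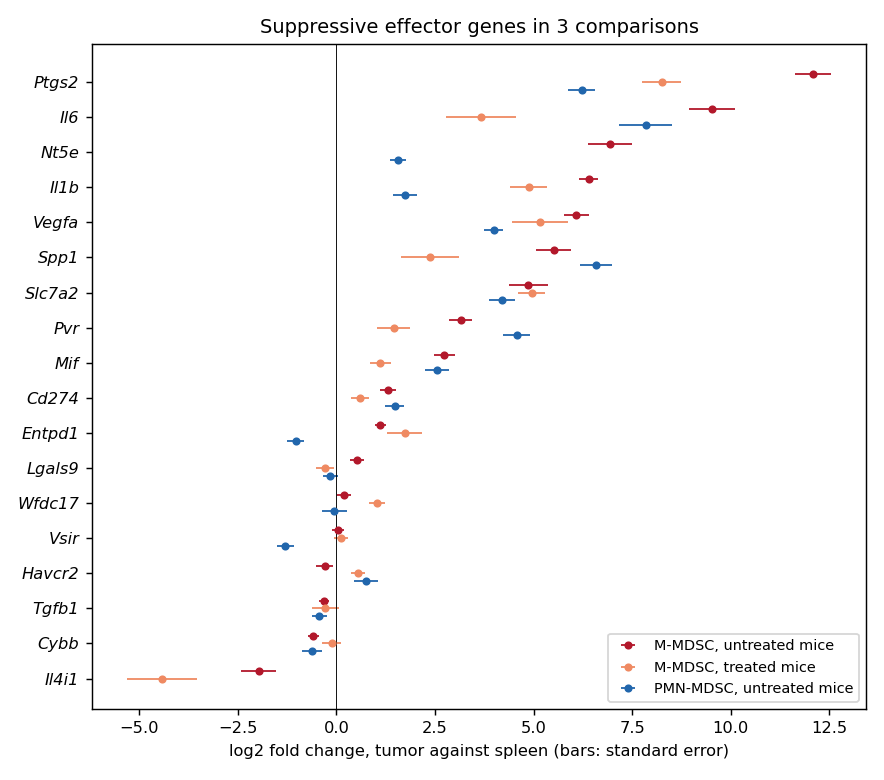
Points give the fitted log2 fold change of tumor against spleen and bars its standard error. The vertical axis names 18 tested suppressive effector genes, and colors give M-MDSC of untreated mice, M-MDSC of treated mice and PMN-MDSC of untreated mice, where a gene was tested. The points of Slc7a2 lie close together in all 3 comparisons, whereas those of Il1b and Ptgs2 lie further right in M-MDSC of untreated mice than in PMN-MDSC, and fitted values for Il6 and Nt5e rest on 2 spleen counts.

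Chemokine ligands, the secreted proteins that direct leukocyte migration, rose where they had enough counts for a test, which was the case for 7 of 12 CC ligands (median log2 difference 6.16) and 6 of 13 CXC ligands (median 6.52, or 5.38 with 2 members that had no spleen count set at their bound). Ccl7, Cxcl1, Cxcl2 and Cxcl3, with no or few spleen counts, were tested because of their tumor counts and had to be higher there. Without tumor library 1 or 3 only 5 CXC ligands were tested, and their median was 3.47 or 3.73. Ccl2, the ligand of Ccr2, was at 1.49 to 2.66 CPM in spleen and 119 to 292 CPM in tumor (6.70 ± 0.36). Ccl3 and Ccl4, macrophage inflammatory proteins, rose from 1.5 to 109 CPM and from 0.788 to 175 CPM, and Ccl6, the CC ligand with the highest level, from 347 ± 54 to 1176 ± 267 CPM. Cxcl3, like Cxcl2 a neutrophil attractant, had no spleen count and was at least 151-fold higher in tumor, against a floor of 3 counts over the 4 spleen libraries. By the same floor Cxcl1 was at least 389-fold and Ccl7 at least 182-fold higher (both named after their values were seen). Cxcl10, which attracts T cells through Cxcr3, rose from 13.3 ± 2.7 to 153 ± 66 CPM.

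Of 6 chemokine receptors 4 rose and 2 passed no threshold (median 2.25). Ccr1 was at 19.8 to 49.7 CPM in spleen and 175 to 349 CPM in tumor (3.25 ± 0.30). Ccr2 was one of the 2 that passed no threshold, and its log2 difference is given above. The other was Cx3cr1, the fractalkine receptor of patrolling monocytes, at 195 CPM in spleen and 123 CPM in tumor (adjusted p = 0.177).

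Inflammatory cytokines and the feedback regulators of NF-κB, a transcription factor activated by cytokine and pathogen receptors, were mostly higher in tumor. Of 28 tested members 23 rose, none fell and 5 passed no threshold (median 3.22), and Il1a, Il23a and Il6 among those that rose were tested because of their tumor counts. Nfkbia, the inhibitor that NF-κB itself induces, was at 87.8 to 123 CPM in spleen and 1158 to 1667 CPM in tumor (3.73 ± 0.17). Named after their values were seen, Nfkbiz went from 64.4 to 1620 CPM, Tnfaip3 from 101 to 1923 CPM, Tnf from 15.7 to 209 CPM and Il1rn, the interleukin-1 receptor antagonist, from 80.3 to 718 CPM. Il1a and Il23a rested on 3 and 2 spleen counts, with ratios of 1246 (426 to 6048) and 246 (67.6 to 2043). The 5 members without a call were Nfkb1, Nfkb2, Relb, Il18 and Tnip1, between -0.27 and 0.42 on the log2 scale.

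The promoters of these genes were read from RefSeq sequence on GRCm38.p6, in windows of 250 bases before each start, for 6279 of the 8298 tested genes (8072 windows). An NF-κB motif, searched by its consensus on both strands, was in 9.14% of the windows of tested genes and 7.25% of all promoter windows. It was in 14% of the windows of strictly higher genes and 9.88% of those of strictly lower genes. Among inflammatory genes 11 of 26 windows (42.3%) held it, and 4 of 5 windows of CXC ligands did. The AP-1 motif TGANTCA was in 4.44% of tested windows (6.75% of all), 6.31% of strictly higher windows and 26.9% of inflammatory windows. It was in 0 of 37 windows of the immediate early and heat shock list. Such matches describe letters in a window and say nothing of binding. Some genes were picked by hand and looked up for a match in the 120 bases before the start. Il1b, Ccl2 and Ptgs2 gave no window with an NF-κB match there. The windows of 3 genes that did are shown, with the match in capitals and each stretch 120 bases long. They lie at chr5:90903779-90903898 on the plus strand for Cxcl2, chr5:90891125-90891244 on the plus strand for Cxcl1 and chr12:55492648-55492767 on the minus strand for Nfkbia.
Cxcl2: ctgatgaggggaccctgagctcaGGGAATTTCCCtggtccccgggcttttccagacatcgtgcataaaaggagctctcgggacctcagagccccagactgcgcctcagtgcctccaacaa
Cxcl1: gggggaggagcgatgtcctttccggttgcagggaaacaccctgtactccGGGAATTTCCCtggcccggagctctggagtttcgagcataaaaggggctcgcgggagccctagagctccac
Nfkbia: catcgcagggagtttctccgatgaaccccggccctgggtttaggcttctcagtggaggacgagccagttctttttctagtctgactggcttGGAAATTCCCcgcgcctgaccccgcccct
Cxcl2 and Cxcl1 carried the same 11 capital letters, in which 2 overlapping matches lay, at 97 and 71 bases before the start, and the match of Nfkbia lay 29 bases before it.

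Immediate early genes, which cells induce within minutes of a stimulus, and heat shock genes formed the list with the largest number of calls. This leaves aside the group of histone genes below, formed after values were seen. Of 35 tested members of the immediate early and heat shock list 34 rose, 1 fell and none was left without a call (median 3.62), and 24 of them passed the strict rule upward. Jun was at 49.8 to 91.9 CPM in spleen and 1406 to 1586 CPM in tumor (4.39 ± 0.19), Btg2 at 106 to 119 and 1104 to 1651 CPM (3.71 ± 0.16), and Gadd45b at 18.4 to 26 and 324 to 490 CPM (4.20 ± 0.18). None of these 3 genes overlapped between organs. Named after their values were seen, Fos rose from 47.0 to 2879 CPM, Egr1 from 8.56 to 697 CPM, Fosb from 3.35 to 880 CPM, and the heat shock gene Hspa1b from 59.0 to 2304 CPM. The constitutive chaperone Hspa8 had the highest level and rose from 1989 ± 483 to 3581 ± 889 CPM. Klf2, a factor of quiescent cells, was the one member that fell (from 237 ± 98 to 143 ± 12 CPM, adjusted p = 0.0434), and this call was lost in 6 of 8 fits that left out 1 library. Only tumors went through the dissociation kit before the sort, and the part of that step in the rise of these genes cannot be told apart from the organ. Tumor PMN-MDSC came from tissue dissociated in this way too and are no control for this step, and their values are given with the comparison of the subsets.

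The unfolded protein and integrated stress responses, which reduce protein synthesis and raise chaperones of the endoplasmic reticulum, had 14 of 23 members higher, 1 lower and 8 without a call (median 1). Atf4, the transcription factor of the integrated stress response, rose from 87.2 ± 5.1 to 215 ± 36 CPM, Slc3a2, a subunit of amino acid exchangers, from 35.4 to 185 CPM, and the chaperone Calr from 542 ± 177 to 1386 ± 621 CPM. Eif2ak3, the kinase PERK, fell from 96.1 ± 9.3 to 47.4 ± 8.7 CPM. Without spleen library 1 there were 2 fallers in place of 1, and 3 under upper-quartile scaling. The cyclic AMP response element TGACGTCA was in 2.7% of tested windows (1.55% of all), in 4.40% of the windows of strictly higher genes and in 0 of 162 windows of strictly lower genes. Fos, Nr4a1, Ptgs2 and Ifrd1 were also looked up by hand and gave no window with the element in the 120 bases before the start. Ppp1r15a, whose values are given above, held the element 12 bases before the start, at chr7:45526269-45526388 on the minus strand. It is shown, with the element in capitals, because it had the smallest p among the members of this list.
Ppp1r15a: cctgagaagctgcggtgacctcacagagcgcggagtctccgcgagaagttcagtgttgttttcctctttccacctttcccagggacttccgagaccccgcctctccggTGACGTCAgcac

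Most tested genes of the response to low oxygen and of glycolysis were higher in tumor. Of 17 tested hypoxia genes 15 rose, none fell and 2 passed no threshold (median 1.64). Hif1a, the oxygen-regulated transcription factor itself, was at 148 to 264 CPM in spleen and 1065 to 1676 CPM in tumor (2.72 ± 0.20). Egln3, an oxygen-sensing hydroxylase that is itself a target, went from 2.27 ± 0.31 to 35.6 ± 7.1 CPM. Slc2a1, the glucose carrier GLUT1, was at 33.3 to 51.0 CPM in spleen and at 419, 286, 282 and 259 CPM in tumor (2.84 ± 0.19). Of 19 glycolysis genes 15 rose, 2 fell and 2 passed no threshold (median 1.54). Pfkl, the liver-type phosphofructokinase, rose from 31.8 ± 1.5 to 184 ± 40 CPM, Slc16a3, which exports lactate, from 45.3 ± 5.0 to 262 ± 72 CPM and Pkm (pyruvate kinase) from 707 ± 78 to 1456 ± 183 CPM. Slc2a3, the glucose carrier GLUT3, fell from 28.8 ± 9.1 to 8.92 ± 5.46 CPM, and Pfkfb4 fell from 109 ± 10 to 67.1 ± 7.5 CPM. The call for Slc2a3 was lost when all M-MDSC groups were fitted together (adjusted p = 0.108).

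The core of the hypoxia response element, ACGTG on either strand, was in 12 of 21 windows of hypoxia genes (57.1%), against 22.8% of tested windows and 16.6% of all. It was in 28.3% of strictly higher and 13.6% of strictly lower windows. Of the genes looked up by hand, Slc2a1 held it in the 120 bases before the start, whereas Egln3 and Vegfa gave no window with it there. Bnip3, a mitochondrial protein of mitophagy that rose from 13.0 to 66.4 CPM (named after its values were seen), is shown at chr7:138909507-138909626 on the minus strand because its capitals read ACGTG on both strands, 108 bases before the start.
Bnip3: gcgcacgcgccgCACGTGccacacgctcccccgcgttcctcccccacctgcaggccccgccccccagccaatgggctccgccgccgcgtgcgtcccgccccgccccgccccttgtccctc

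Genes that mark the passage from monocyte to macrophage were nearly all higher in tumor. Of 25 tested members 22 rose, none fell and 3 passed no threshold (median 1.84). Mrc1 (the mannose receptor CD206) was at 41.3 to 79.8 CPM in spleen and 496 to 1061 CPM in tumor (3.76 ± 0.28). Mertk, which takes up dying cells, went from 10.6 ± 3.0 to 97.9 ± 26.6 CPM, Lgmn, a lysosomal protease, from 109 ± 5 to 495 ± 71 CPM and Apoe, a lipid carrier, from 652 ± 97 to 4288 ± 1908 CPM. Apoe varied most within tumor, between 2019 and 6591 CPM, and still did not overlap spleen. Named after their values were seen, the 3 complement genes C1qa, C1qb and C1qc rose by 4.34, 4.00 and 3.82 on the log2 scale. Csf1r and Cd63 were among the 3 members without a call. The macrophage factor Maf rose from 42.2 to 225 CPM and was also named after its values were seen.

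Scavenger and lectin receptors had 9 of 12 members higher, 1 lower and 2 without a call (median 2). Clec4e (Mincle) was at 34.1 to 42.2 CPM in spleen and 609 to 1271 CPM in tumor (4.59 ± 0.22), and Clec7a (Dectin-1), the highest of the list, rose from 342 ± 58 to 594 ± 130 CPM. Scarb1, which binds high-density lipoprotein, fell from 287 ± 20 to 107 ± 23 CPM. Lysosomal proteases had 9 of 13 higher and none lower (median 0.66), with Ctsl from 29 ± 10 to 233 ± 30 CPM, Ctsd from 81.5 ± 18.2 to 317 ± 97 CPM and the abundant Ctss from 1722 ± 86 to 2626 ± 227 CPM. Fc and complement receptors had 9 of 15 higher and none lower (median 1.15). C5ar1, the receptor for the complement fragment C5a, was at 6.97 to 19.5 CPM in spleen and 113 to 195 CPM in tumor (3.37 ± 0.28), C3ar1 rose from 32.8 to 273 CPM and Fcgr3 from 255 to 568 CPM, whereas Fcer1g was at 388 and 404 CPM. The calls for Clec7a and Ctss were lost when all M-MDSC groups were fitted together (adjusted p = 0.313 and 0.0562).

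Antigen presentation moved little. Of 7 MHC class II genes 3 rose and 4 passed no threshold (median 0.55). H2-Ab1, H2-Eb1 and H2-Aa rose by 0.78, 1.20 and 0.74 on the log2 scale, but the call for H2-Aa was lost without tumor library 1, and those for H2-Aa and H2-Ab1 without spleen library 3, without tumor library 3 or 4 and under upper-quartile scaling. None of the 3 calls was left when all M-MDSC groups were fitted together (adjusted p = 0.310 for H2-Ab1, 0.181 for H2-Eb1 and 0.345 for H2-Aa). Cd74, the invariant chain, was at 2339 ± 703 and 3426 ± 594 CPM (adjusted p = 0.0879). In the class I pathway 6 of 21 rose and none fell, with a median of 0.10 that turned to -0.05 under upper-quartile scaling. H2-Q7 was at 26.6 to 32.8 CPM in spleen and 77.9 to 83.2 CPM in tumor (1.44 ± 0.13), H2-Q4 rose by 0.86, and B2m was at 754 ± 38 and 712 ± 112 CPM. H2-Q genes are close copies, and reads can be split between them, so their values are uncertain.

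Genes of circulating monocytes divided. Of 19 genes of classical monocytes 4 rose, 5 fell and 10 passed no threshold (median -0.22, with 8 fallers under upper-quartile scaling). Fn1 (fibronectin) rose from 3024 ± 917 to 8235 ± 1493 CPM and Vcan (versican) from 749 ± 355 to 2279 ± 215 CPM, while Chil3, a chitinase-like lectin, fell from 979 ± 222 to 331 ± 64 CPM, Cd177 from 280 ± 65 to 65.4 ± 19.7 CPM and Gsr, glutathione reductase, from 824 ± 78 to 517 ± 40 CPM. When all M-MDSC groups were fitted together the calls for Vcan, Chil3 and Gsr were lost (adjusted p = 0.141, 0.145 and 0.225). Of 10 genes of patrolling monocytes 5 fell, 3 rose and 2 passed no threshold (median -1.30). Besides Ace and Pglyrp1, Itgal, a subunit of the integrin LFA-1, fell from 925 ± 84 to 308 ± 99 CPM, whereas Nr4a1, which patrolling monocytes require and which is also an immediate early gene, was at 112 to 238 CPM in spleen and at 1658, 1682, 1687 and 909 CPM in tumor (2.97 ± 0.27). Dusp16 rose from 34.9 ± 6.1 to 151 ± 23 CPM and Cd300ld from 58.5 ± 13.6 to 114 ± 49 CPM, the latter a call lost without spleen library 3 (adjusted p = 0.0661) or 4 (0.0613). Several of the genes that fell were also high in splenic PMN-MDSC, scaled on their own, with Cd177 at 821 CPM, Pglyrp1 at 371 CPM, Gsr at 1747 CPM and Itgal at 1614 CPM, whereas Ace was at 158 CPM there, below its level in splenic M-MDSC. Neutrophil markers moved in the same direction, from 3928 to 9675 CPM in spleen to 302 to 906 CPM in tumor, and their part in these results was not tested.

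Progenitor and granule genes fell or passed no threshold. Of 9 tested 5 fell and none rose (median -0.82, or -1.28 without tumor library 2). Cebpe, the transcription factor of granule formation, was at 20.4 to 39.5 CPM in spleen and 0 to 2.99 CPM in tumor (-3.45 ± 0.41). Fcnb (ficolin) fell from 114 ± 39 to 9.30 ± 8.74 CPM and Myb, a factor of blood progenitors, from 18.7 ± 7.1 to 2.04 ± 1.84 CPM. Igsf6 had the highest level and fell from 450 ± 61 to 265 ± 36 CPM. The primary granule genes Elane, Mpo and Prtn3 (named after their values were seen) had log2 differences of -1.38, -0.64 and 0.01, none past the threshold. These genes also moved in the direction of the neutrophil markers, whose part in the result was not tested.

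Of 28 tested cell cycle genes 16 fell in tumor M-MDSC, 1 rose and 11 passed no threshold (median -1.32), and none passed the strict rule. Hmgb2, a chromatin protein of dividing cells, was at 245 to 405 CPM in spleen and 61.3 to 165 CPM in tumor (-1.32 ± 0.28). Mcm7, a subunit of the replication helicase, fell from 42.4 ± 7.7 to 16.4 ± 8.0 CPM and Kif23, a kinesin of cell division, from 46.1 ± 15.9 to 17.4 ± 7.6 CPM. Cenpa, the histone variant of centromeres, was the member that rose, from 19.6 ± 6.4 to 39.1 ± 5.2 CPM. The call for Cenpa was lost when all M-MDSC groups were fitted together (adjusted p = 0.111). The number that fell was 9 of 26 without spleen library 3, 10 of 23 without spleen library 4 and 10 of 29 without tumor library 4. Neutrophil markers also fell from spleen to tumor, and in splenic PMN-MDSC, scaled on their own, Kif23 was at 231 CPM and Hmgb2 at 568 CPM, above their levels in splenic M-MDSC, while Mcm7 was at 19.4 CPM, below it. The part of these cells in the result was not tested.

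Replication-dependent histone genes, whose mRNAs lack a poly(A) tail and are read in total RNA, were mostly lower in tumor. This group was formed after histone genes were seen among the leading genes, so it carries no weight as a test. Of 41 tested genes of the Hist clusters 36 fell, none rose and 5 passed no threshold, 24 passed the strict rule, and the log2 differences ran from -3.68 to -0.20 with a median of -2.37. In 34 of the 41 the organs did not overlap, which compares with 14.4% over all tested genes. Many histone genes are near-identical copies, so single values are uncertain.

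Interferon-stimulated genes showed no common direction. Of 46 tested 5 rose, 6 fell and 35 passed no threshold, and the median was -0.09, shares near those of all tested genes. Rsad2 (viperin) went from 23.6 ± 5.7 to 55.9 ± 29.1 CPM with overlapping libraries (a call lost without tumor library 1), Isg15 from 14.7 ± 3.6 to 29.6 ± 8.4 CPM and Oasl1 from 14.6 ± 4.4 to 39.7 ± 16.8 CPM. Ifit3 fell from 46.2 ± 5.4 to 25.2 ± 1.7 CPM, Mx1 from 107 ± 13 to 62.2 ± 16.8 CPM and Cmpk2 from 36.1 ± 9.2 to 15.6 ± 4.2 CPM. In the fit of all M-MDSC groups Isg15 and Mx1 lost their calls (adjusted p = 0.127 and 0.0864). Ifitm3, the highest of the list, was at 242 ± 26 and 256 ± 61 CPM. The counts moved easily, to 3 higher and 11 lower under upper-quartile scaling, to 3 lower without spleen library 2 (median then 0.03) or tumor library 3, to 3 higher and 3 lower without spleen library 3, and to 3 higher without spleen library 4 or tumor library 1.

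Matrix genes and matrix proteases had 15 of 20 members higher, 1 lower and 4 without a call (median 1.62). Thbs1 and Tgm2 led this list. Hpse (heparanase) fell from 175 ± 33 to 67.5 ± 13.3 CPM. Of 11 tested growth factors, from a list of 25, 8 rose and 3 passed no threshold (median 1.68), and members near 0 in spleen, such as Areg and Tnfsf9, were tested because of their tumor counts. Without tumor library 3 only 7 were tested, of which 5 rose, and without spleen library 4 only 8 were tested, of which 7 rose, with a median of 6.06. Tnfsf9 (4-1BB ligand), which co-stimulates T cells, rose from 0.952 ± 0.373 to 143 ± 61 CPM, and Areg (amphiregulin, named after its values were seen) had no spleen count and was at least 253-fold higher against the floor of 3 counts. Of 20 integrins and adhesion genes 8 rose, 3 fell and 9 passed no threshold (median 0.31). Itga6 rose from 9.52 ± 2.12 to 58.6 ± 24.4 CPM, Itgb5 from 96.7 ± 13.8 to 309 ± 92 CPM and Cd44, a hyaluronan receptor, from 550 ± 75 to 1275 ± 197 CPM. Itga4, which binds VCAM-1, fell from 1354 ± 158 to 510 ± 50 CPM and Selplg, the ligand of selectins, from 295 ± 51 to 187 ± 40 CPM (a call lost without spleen library 2), while Itgb2 was at 1082 and 953 CPM (log2 difference -0.18, adjusted p = 0.258, and 0.0423 under upper-quartile scaling).

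Of 38 myeloid transcription factors 21 rose, 10 fell and 7 passed no threshold (median 0.67, and 6 fallers without spleen library 1). Ets2 was at 7.99 to 17.9 CPM in spleen and 317 to 539 CPM in tumor (5.14 ± 0.27), Bhlhe40 rose from 79.3 ± 25.5 to 648 ± 143 CPM and Cebpb, which drives emergency myelopoiesis, from 535 ± 186 to 1865 ± 380 CPM. Klf13 fell from 428 ± 60 to 219 ± 43 CPM, along with Cebpe and Myb.

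Lipid, iron and oxidant genes did not share a direction. Of 20 lipid genes 5 rose, 3 fell and 12 passed no threshold, with a median of 0.04 that turned to -0.11 under upper-quartile scaling. Abca1, the cholesterol exporter, went from 19 ± 7.7 to 294 ± 72 CPM, Dgat1, which makes triglycerides, from 17.3 ± 3.1 to 82.7 ± 15.3 CPM and Plin2, the coat of lipid droplets, from 63.8 ± 8.9 to 184 ± 8 CPM. Lipa, the lysosomal acid lipase, fell from 103 ± 10 to 64.4 ± 5.8 CPM, Acsl1 from 78.9 to 44.5 CPM and Nr1h3 (LXRα) from 24.7 to 13.5 CPM, the last a call lost in 4 of 8 fits that left out 1 library. All 3 of these calls were lost when all M-MDSC groups were fitted together (adjusted p = 0.0552, 0.0512 and 0.0526).

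Of 15 tested members of the list of iron and heme genes, which also holds the prostaglandin enzyme Hpgd, 2 rose, 5 fell (Hpgd among them) and 8 passed no threshold (median -0.12, or 0.05 without spleen library 1). Fth1, the ferritin heavy chain, was at 566 to 641 CPM in spleen and 1504 to 1820 CPM in tumor (1.43 ± 0.12), and Slc11a1 (Nramp1) rose from 124 to 247 CPM. Lcn2, the siderophore-binding lipocalin also found in neutrophil granules, fell from 530 ± 216 to 24 ± 19.8 CPM. Spic, the factor of red pulp macrophages, fell from 30.1 ± 14.4 to 2.88 ± 3.73 CPM and Hpgd, which degrades prostaglandins, from 117 ± 39 to 19.9 ± 6.7 CPM, opposite in direction to Ptgs2. Of 27 glutathione and oxidant genes 7 rose, 4 fell and 16 passed no threshold (median -0.03, of changing sign when single libraries were left out). Txnrd1, thioredoxin reductase, rose from 87.6 ± 11.7 to 371 ± 68 CPM, Prdx6 from 50.9 to 172 CPM and Nfe2l2 (NRF2) from 166 ± 20 to 454 ± 63 CPM. Gstm1 fell from 39.1 to 25.5 CPM (adjusted p = 0.0184, a call lost without spleen library 4 or tumor library 3, with 2 fallers in this list without tumor library 3 and 7 under upper-quartile scaling), and Gpx1 was at 733 and 520 CPM (adjusted p = 0.0873).

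**Figure D5:**
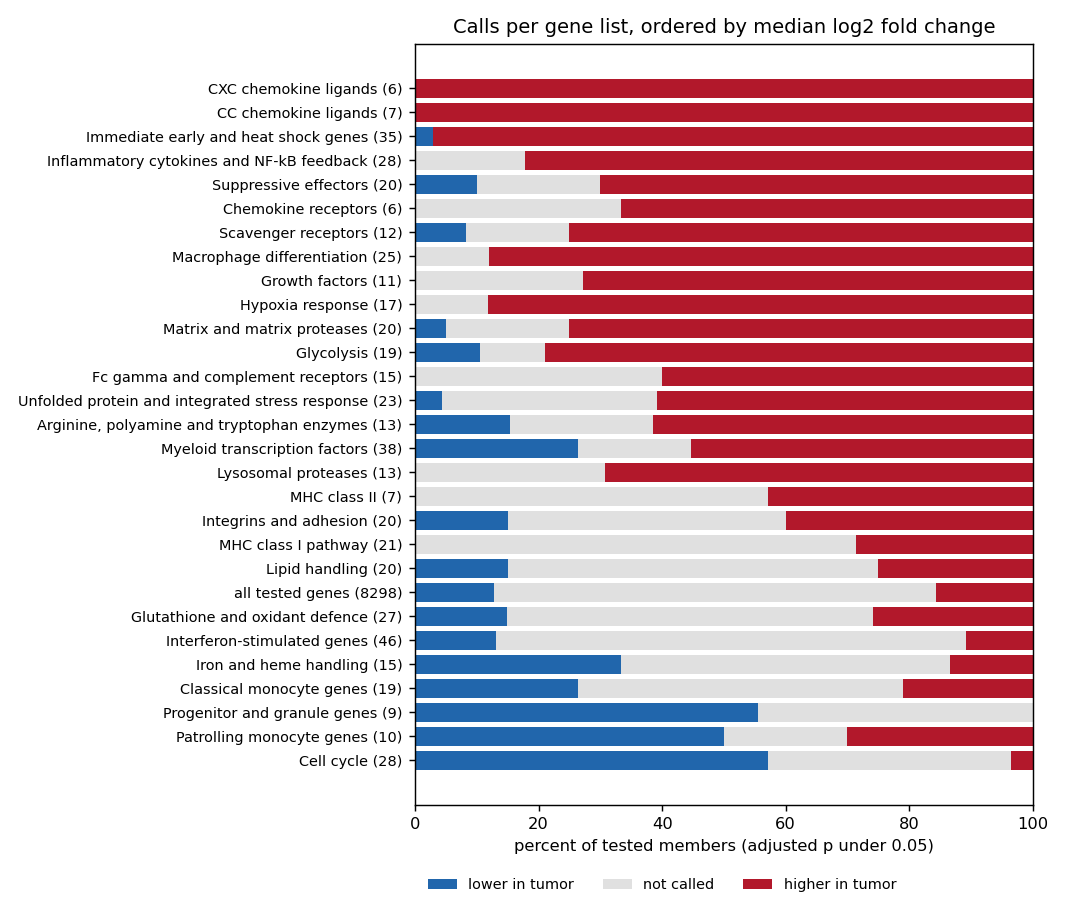
Each bar is 1 gene list with its number of tested members, split into the percent of members lower in tumor, not called and higher in tumor at an adjusted p under 0.05, and ordered by median log2 fold change. All tested CXC and CC ligands and 34 of 35 immediate early and heat shock genes are higher, 16 of 28 cell cycle genes are lower, and the bar of all tested genes holds 15.7% higher and 12.7% lower.

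To ask which organ differences were larger in M-MDSC than in the granulocytic subset of untreated mice, both subsets were fitted together with an interaction of subset and organ. The difference between the subsets in their tumor against spleen values passed an adjusted p of 0.05 upward for 1445 of 8278 genes (17.5%) and downward for 1640 (19.8%). The split was not firm, since the upward share of calls was 46.8% here and 57.9% with another scaling. Of 523 strictly higher M-MDSC genes in that fit, 226 moved further up in M-MDSC and 57 less far or in the other direction. Of 178 strictly lower genes 49 moved further down in M-MDSC and 34 less far or in the other direction. The choice of these genes on the M-MDSC values contributes to both counts. Of 36 named genes examined in this way, from the leading genes and the suppressive effectors, 18 differed. The choice of the leading genes on the M-MDSC values contributes to this count too. Osm rose by 2.84 on the log2 scale in PMN-MDSC, 5.19 less than in M-MDSC (adjusted p = 9.62e-07), and Il1b rose by 1.74, which was 4.55 less (9.62e-07). Ptgs2 rose by 6.22 in PMN-MDSC, 5.80 less than in M-MDSC, and Thbs1 by 3.36, 3.60 less. Entpd1 fell in PMN-MDSC by 1.04 on the log2 scale, a difference of 2.04.

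For several genes the difference between the subsets missed this threshold, which does not show that they moved alike, since small differences are hard to detect in this fit. Nfkbia rose by 3.46 on the log2 scale in PMN-MDSC with a difference of 0.16 ± 0.26 (SE, adjusted p = 0.645), Hif1a by 2.42 with a difference of 0.22 ± 0.31 (0.606) and Odc1 by 4.52 with a difference of 0.11 ± 0.39 (0.849). Among immediate early genes, Jun rose by 2.34 and Btg2 by 1.77 in PMN-MDSC, less than in M-MDSC by 1.95 (9.43e-05) and 1.84 (1.21e-04), while Gadd45b rose by 3.49 with a difference of 0.60 ± 0.35 (0.184). Ccr1 and C5ar1 went in opposite directions in the subsets, at -0.84 and -0.88 in PMN-MDSC and differences of 3.98 and 4.14. Pvr went the other way, with 4.57 in PMN-MDSC against 3.15 in M-MDSC in the fit of M-MDSC alone, a difference of -1.5 (0.0233).

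The same organ comparison could be made in M-MDSC of poly(I:C)-treated mice, on 4 spleen and 3 tumor libraries that share none of the samples above. At an adjusted p under 0.05, 461 of 9026 tested genes were higher in tumor (5.11%) and 69 lower (0.764%), with 217 and 14 left without 1 spleen library of treated mice (library 1). Of 527 strictly higher genes of untreated mice 500 were tested there, 474 had the same sign and 239 passed the threshold. Of 187 strictly lower genes 177 were tested, 170 had the same sign and 30 passed. Il1b rose by 4.88, Ptgs2 by 8.25, Thbs1 by 5.79 and Vegfa by 5.17 on the log2 scale in treated mice, each at an adjusted p between 4.37e-04 and 0.00622. Cd14 rose by 4.43 and Jun by 3.20. Mrc1 and Apoe rose by 6.48 and 6.10, against 3.76 and 2.72 in untreated mice, and whether these differ between treated and untreated mice was not tested. Ace was at -2.45 in treated mice without passing the threshold (0.233), and Nfkbia at 1.35 (0.114). The difference between untreated and treated mice in these values was not tested for any gene here.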

How the data were processed

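RNA of sorted cells was sequenced with the SMARTer Stranded Total RNA-Seq kit (Pico input, version 2) after removal of ribosomal RNA, without molecular identifiers, so intervals and floors cover counting error only. The authors aligned reads with ContextMap using BWA to mm10 (GRCm38) and deposited counts per gene, made strand-specifically with featureCounts (Subread 1.4.6-p3) on Gencode annotation. These counts were used as deposited. Column names gave the group of each library but not its title, so libraries carry running numbers that pair nothing across organs. Within organs, no 2 libraries were identical or agreed within sampling noise.

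Genes whose counts averaged 25 or more in a comparison were tested with edgeR's quasi-likelihood test (edgeR 4.0.16, limma 3.58.1, R 4.3.3), TMM scaling, robust estimates and Benjamini-Hochberg adjustment. The strict rule asked for an adjusted p under 0.001 with a difference of 2-fold or more, as the study's methods do, and 0.05 was used for counts in lists. PMN-MDSC entered a joint fit with an interaction term, and treated M-MDSC a fit of their own, without 1 tumor library that held under 1000 counts. DESeq2 1.42.0 was an alternative, as were other scalings, filters and fits and leaving out each library. The test was checked on simulated data.

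The members and lists were chosen with earlier results of these data known. Genes named were the 10 of each direction with the smallest p among strictly called genes without overlap between organs, the 3 members per list and direction with the smallest p past 0.05 with the highest-level member, all suppressive effectors, and the highest marker of each list in each organ. Others are said to be named after their values were seen. Some genes that the rule names are not reported here, although counts over lists include them. Gene positions came from GENCODE M21 on GRCm38, which matched 53274 of 53379 identifiers, and promoter sequences from RefSeq. A gene without spleen counts was set against a floor of 3 counts over the 4 spleen libraries, and ratios on 1 to 3 counts carry exact 95% intervals.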

Additional observations from a re-analysis of the deposited data

Results flagged for a closer look

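Of 282 sets of 4 libraries (a named gene in 1 organ), 14 held a library far from the other 3 by Dixon's ratio, and chance alone gives about 1 in 20. In spleen, library 2 stood apart for Abca1 (7.54 CPM, the lowest), Ccl2 (2.66 CPM, the highest), Rsad2 (15.1 CPM, the lowest) and Scarb1 (317 CPM, the highest). Spleen library 4 was lowest for Fcer1g (337 CPM), and spleen library 1 highest for Slc16a3 (52.7 CPM). In tumor, library 4, the smallest, was lowest for Cebpb (1298 CPM), Nr4a1 (909 CPM) and Tgfb1 (371 CPM) and highest for Cd300ld (187 CPM). Tumor library 2 was highest for Ace (95.4 CPM) and Calhm2 (25.3 CPM), and tumor library 1 for Pkm (1730 CPM) and Slc2a1 (419 CPM). The higher or lower calls of Ace, Abca1, Nr4a1 and Slc2a1 rest on groups that still did not overlap.

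The organ difference of 18 of 36 examined genes differed between M-MDSC and PMN-MDSC in the interaction test. Over all 8278 genes in that fit 17.5% differed upward and 19.8% downward. The 36 came from the leading genes and the suppressive effectors, so the choice of the leading genes on the M-MDSC values contributes to this count. Taken with its sign, as tumor minus spleen on the log2 scale, the organ difference was higher in M-MDSC for Ptgs2 (5.80), Nt5e (5.28), Osm (5.19), Il1b (4.55), Cxcl2 (3.73), Thbs1 (3.60), Tgm2 (2.58), Entpd1 (2.04), Vegfa (2.01), Vsir (1.22), Ppp1r15a (1.12), A430078G23Rik (1.01) and Ifrd1 (0.72). A430078G23Rik fell in both subsets, by less in M-MDSC (-2.39) than in PMN-MDSC (-3.49). The signed difference was lower in M-MDSC for Hist1h2ao (-2.40), Hist1h1d (-1.99), Calhm2 (-1.92), Pvr (-1.50) and Havcr2 (-1.12). For Hist1h2ao, Hist1h1d and Calhm2 this was a larger fall in M-MDSC. The fitted values of Cxcl2 and Nt5e rest on 3 and 2 spleen counts and depend on the prior count.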

How the results depend on the processing

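No paired analysis was possible because the count columns carry running numbers other than the replicate numbers that the sample titles share across organs, and so are tied by name to groups only. A link through the order of the columns was not used. Counts of calls moved by over 1.5 times in these fits. The strict rule gave 351 lower genes with DESeq2, 85 when all M-MDSC groups were fitted together, and 975 higher and 508 lower without the filter on low counts. At 0.05, upper-quartile scaling gave 1590 lower genes and the fit without a filter 2124 higher. In treated mice DESeq2 gave 812 higher and 320 lower genes, and no filter 1360 and 612. Leaving out 1 library gave 380 to 541 strictly higher and 98 to 198 strictly lower genes, 1042 to 1454 higher and 722 to 1312 lower at 0.05, 1363 to 1937 higher and 1078 to 1780 lower in the comparison with PMN-MDSC, where 1078 came without PMN-MDSC spleen library 4, and 217 to 496 higher and 14 to 99 lower in treated mice. The fit without a filter tested more genes, and the cause of the other changes was not tested. Of the named genes, none changed sign, 50 comparisons with an alternative lost a call, 12 gained one and 2066 kept theirs. The fit of all M-MDSC groups accounted for 17 of the 50, Acsl1, Cenpa, Chil3, Clec7a, Ctss, Gsr, H2-Aa, H2-Ab1, H2-Eb1, Il4i1, Isg15, Lgals9, Lipa, Mx1, Nr1h3, Slc2a3 and Vcan. Depth limits low genes most in tumor library 4 (793070 counts).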
